A study of Mus musculus with 17 samples.

Results

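The Cyp2a cytochromes are a family of mouse liver enzymes, described here by 4 genes, Cyp2a4, Cyp2a5, Cyp2a12 and Cyp2a22. They were chosen by name, with earlier results of these data known, out of 49315 genes in the liver files and 15632 genes listed in at least 1 hepatocyte file. All 4 were found in both and all 4 passed the filter on low counts. Their own levels and differences between groups are therefore given as descriptions, singly and summed. The number of members that an all-gene test called is printed only beside the share of all genes it called, and supports nothing here. RNA had been sequenced from mouse liver and from isolated hepatocytes with lesions in the sphingomyelin synthase genes. In the liver experiment there were 4 libraries labelled SMSrKO (knockout of Smsr, gene symbol Samd8) and 4 labelled WT, and all these mice had received high-fat food and fructose in their drinking water for 16 weeks. In the hepatocyte experiment there were 3 libraries labelled Sms1/Sms2/Smsr-tKO (tKO), 3 labelled Sms1/Sms2-dKO (dKO) and 3 labelled WT. These cells came from mice of 2 months and were isolated by a two-step collagenase method, and no diet is given for them. The labels say neither where in the body the genes were deleted nor the sex of the mice, and give no age for the liver mice. For hepatocytes they give 3 mice per group but do not tie each library to a mouse, and for liver they do not say that each library came from a separate animal. A p-value or SE thus reflects how libraries vary, which may be technical, and this applies most to the hepatocytes, whose libraries varied least.

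Cytochromes P450 of the Cyp2a subfamily are heme monooxygenases of the endoplasmic reticulum that take electrons from the reductase Por. Cyp2a5 is the mouse coumarin and nicotine hydroxylase, the counterpart of human CYP2A6, and is known as a gene whose RNA responds to xenobiotics and to liver injury. Cyp2a4 hydroxylates steroids such as testosterone and is known to be more abundant in female than in male mouse liver. Cyp2a12 also hydroxylates steroids and bile acids.

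The 4 genes lay in 1 stretch of chromosome 7 (GRCm38), each with 9 exons in the annotated transcript used. Cyp2a4 spanned 26307169 to 26315088, Cyp2a5 26835305 to 26843548 and Cyp2a12 27029081 to 27037375, all on the plus strand, and Cyp2a22 spanned 26931631 to 26939384 on the minus strand. They formed 2 near-identical pairs. The coding sequences of Cyp2a4 and Cyp2a5 were 98.5% identical, with 23 differences in 1485 bases, and those of Cyp2a12 and Cyp2a22 were 97% identical, with 45 mismatches in 1479 bases. Across the pairs the identity was 74.9% to 76.1%. The longest stretch without a difference between Cyp2a4 and Cyp2a5 ran for 216 coding bases, from 742 to 957. The following window, coding bases 596 to 655 of each gene from the annotated transcripts, is shown because it holds 4 of the 23 differences, in capitals.
Cyp2a4: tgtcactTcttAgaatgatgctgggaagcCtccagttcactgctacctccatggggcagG
Cyp2a5: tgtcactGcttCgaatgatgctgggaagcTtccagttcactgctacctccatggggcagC

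Counted from the first coding base and with the base of Cyp2a4 first, the 4 differences were T603G, A607C, C625T and G655C. C625T is base 1 of codon 209, and the residue at that position is known from mutagenesis of the mouse enzymes to set the preference for coumarin or for steroid. Reads that span no such difference cannot be assigned to 1 copy. Of all 50-base windows of the Cyp2a4 transcript, 36.1% occurred also in Cyp2a5, and 31% of those of Cyp2a5 occurred in Cyp2a4. For Cyp2a12 and Cyp2a22 the shares were 27.5% and 25.7%, and no 50-base window was shared across the pairs. At 150 bases the shared windows were 4.22%, 3.59%, 3.72% and 3.46% in the order Cyp2a4, Cyp2a5, Cyp2a12 and Cyp2a22. The pseudogene Cyp2a21-ps shared further windows with Cyp2a4 and Cyp2a5, but had only 6 to 60 counts per liver library and was not listed in the hepatocyte files.

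The promoters are printed because the members of each pair share most of them, while their RNA levels, given further on, did not always move together. Each run is 300 bases that end shortly after the gene's start, from RefSeq's annotation of GRCm38.p6, 5′ to 3′ on the gene's own strand. The coordinates are chr7:26306942-26307241 for Cyp2a4, chr7:26835089-26835388 for Cyp2a5, chr7:27028840-27029139 for Cyp2a12 and chr7:26939337-26939636 for Cyp2a22. Capitals mark the letters TATAAA, the core of a TATA box, and TTGCNNAA, a core of sites for C/EBP factors.
Cyp2a4: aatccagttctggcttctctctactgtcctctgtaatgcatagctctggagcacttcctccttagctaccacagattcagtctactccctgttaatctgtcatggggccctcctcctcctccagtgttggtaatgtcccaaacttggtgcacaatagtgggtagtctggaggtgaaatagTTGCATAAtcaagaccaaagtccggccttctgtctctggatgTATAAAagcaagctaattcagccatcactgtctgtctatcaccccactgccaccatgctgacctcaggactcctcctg
Cyp2a5: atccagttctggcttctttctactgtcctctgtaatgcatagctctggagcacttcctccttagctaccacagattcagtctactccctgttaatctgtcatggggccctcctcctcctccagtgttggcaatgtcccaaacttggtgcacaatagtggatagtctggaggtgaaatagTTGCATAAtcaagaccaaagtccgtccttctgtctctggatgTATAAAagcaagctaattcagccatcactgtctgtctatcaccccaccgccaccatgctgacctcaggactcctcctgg
Cyp2a12: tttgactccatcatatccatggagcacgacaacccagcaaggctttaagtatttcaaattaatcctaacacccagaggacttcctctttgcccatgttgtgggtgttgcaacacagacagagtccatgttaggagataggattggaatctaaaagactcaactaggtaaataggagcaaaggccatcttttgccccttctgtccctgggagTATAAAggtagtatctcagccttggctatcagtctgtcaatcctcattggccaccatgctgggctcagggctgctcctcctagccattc
Cyp2a22: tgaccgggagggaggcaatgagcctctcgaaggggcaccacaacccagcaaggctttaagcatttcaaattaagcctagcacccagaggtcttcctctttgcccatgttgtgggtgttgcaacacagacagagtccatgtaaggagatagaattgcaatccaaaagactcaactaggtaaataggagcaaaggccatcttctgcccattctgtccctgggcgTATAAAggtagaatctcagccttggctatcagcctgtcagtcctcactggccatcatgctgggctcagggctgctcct

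The promoters of Cyp2a4 and Cyp2a5 were 97.7% identical, those of Cyp2a12 and Cyp2a22 84.2%, and across the pairs the identity was 52.2% to 55.2%. The letters TATAAA were found in all 4 promoters and in 13.6% of 32851 mouse promoters of the same length. TTGCNNAA was found in Cyp2a4 and Cyp2a5 and in 10.8% of all. The letters CACGTG (E-box, 7.15% of all promoters), TTCNNNGAA (STAT5, 8.3%), TGACNNNGC (antioxidant response element, 12.4%), TTANGTAA (D-box, 2.32%) and CAAAGTCCA (HNF4, 0.475%) had no match in these 4 windows. Both strands were searched, no matches overlapped in the 4 windows, and a match or its absence is a description of these letters.

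Depth was 9221488 to 9665309 expected counts in a hepatocyte library and 24391627 to 47351126 counts in a liver library. Between libraries of a group, a gene's level varied by a common coefficient (edgeR) of 20.3% in liver against only 3.52% in hepatocytes, so far smaller differences pass a test in hepatocytes. The RNA of the deleted genes did not check the labels: Samd8 averaged 54.2 ± 3.67 CPM in libraries labelled SMSrKO and 42.6 ± 6.38 CPM in WT (SD, n = 4 each), and 100.6 ± 2.93 CPM in tKO hepatocytes against 69.7 ± 3.57 CPM in WT (SD, n = 3 each). In hepatocytes Sgms1, which encodes Sms1, averaged 58.7 ± 3.31 CPM in tKO, 90.5 ± 5.55 CPM in dKO and 49.7 ± 3.34 CPM in WT, and Sgms2, which encodes Sms2, 149.6 ± 7.12 CPM in tKO, 150 ± 15.8 CPM in dKO and 183 ± 7.69 CPM in WT (SD, n = 3 each). Of these, Sgms2 alone was lower in both knockout groups, and Sgms1 was highest in dKO. CPM are counts scaled to library size. The extract protocol on the labels names fat (sWAT) for the SMSrKO experiment, while the summed level of 17 hepatocyte markers in these libraries was 102406 to 116664 CPM in SMSrKO and 76800 to 93787 CPM in WT, and that of 8 adipocyte markers was 44.4 to 51.7 CPM in SMSrKO and 44.2 to 131 CPM in WT. Xist, the RNA of the inactive X chromosome, stood at 384 to 681 CPM in SMSrKO libraries and 418 to 653 CPM in WT, and none of 4 genes of the Y chromosome exceeded 6 counts in a liver library. In the hepatocyte files Xist was not listed, and of those 4 only Ddx3y was listed, with at most 1 count.

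In hepatocytes the family's RNA differed mainly between tKO and the other groups, and Cyp2a5 made up most of the difference. Per length, Cyp2a5 had 4860, 4743 and 4644 FPKM in tKO libraries 7, 8 and 9, against 1114, 1127 and 1104 FPKM in dKO libraries 4, 5 and 6 and 1060, 1045 and 1006 FPKM in WT libraries 1, 2 and 3. FPKM are the authors' values per gene length and library size. Every tKO library lay far above the other 6, and every dKO library lay a little above every WT library. By mean FPKM, Cyp2a5 ranked 7 of 14730 genes above 0 in tKO, 55 of 14859 in dKO and 57 of 14256 in WT. On the log2 scale the difference came to 2.17 ± 0.0344 (SE) for tKO against WT, 2.07 ± 0.0342 for tKO against dKO and 0.10 ± 0.0334 for dKO against WT.

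Cyp2a4, the steroid hydroxylase of the same pair, was also highest in tKO, by a smaller factor. It had 983, 966 and 907.5 FPKM in the tKO libraries, 521, 505 and 486 FPKM in dKO and 510, 531 and 508 FPKM in WT. The tKO libraries did not overlap with the others, while dKO and WT overlapped. On the log2 scale its fold change was 0.85 ± 0.0366 for tKO against WT, 0.89 ± 0.0366 for tKO against dKO and −0.04 ± 0.0369 for dKO against WT.

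**Figure D1:**
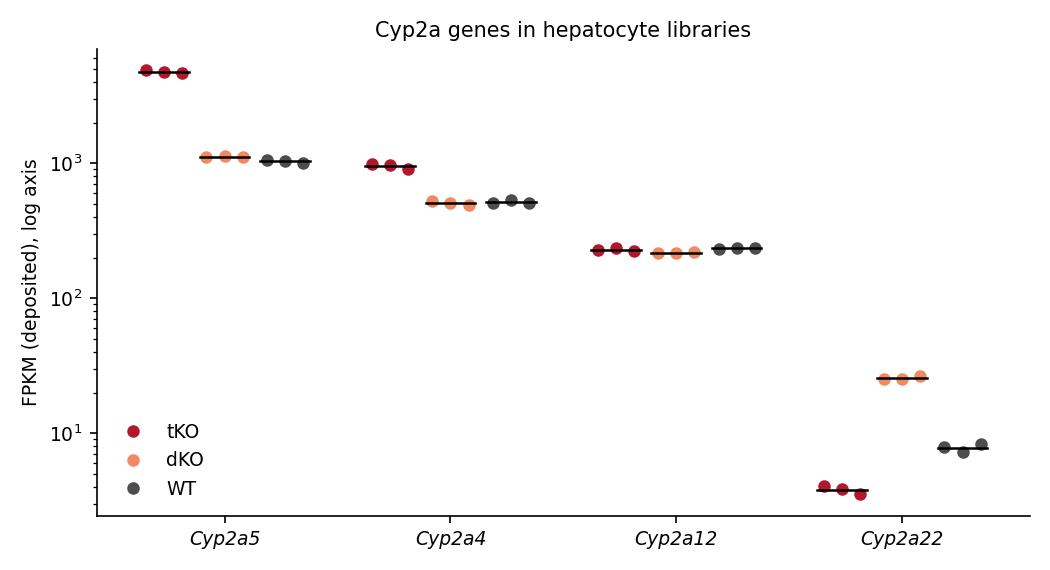
Deposited FPKM of the 4 Cyp2a genes in each hepatocyte library, on a log axis, for 3 tKO, 3 dKO and 3 WT libraries; points are libraries and lines are group means. Cyp2a5 lies at 4644 to 4860 FPKM in tKO, above 1006 to 1127 FPKM in the other groups, while Cyp2a22 is highest in dKO and lowest in tKO.

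Cyp2a12 was nearly level across the hepatocyte groups. It had 228, 236 and 224 FPKM in tKO, 217, 217 and 218 FPKM in dKO and 231, 236 and 235 FPKM in WT. The dKO libraries were the lowest, and tKO and WT overlapped. Its fold change on the log2 scale was −0.06 ± 0.0389 for tKO against WT, 0.05 ± 0.039 for tKO against dKO and −0.11 ± 0.039 for dKO against WT.

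Cyp2a22 was the scarcest member in hepatocytes and had an order of its own. It had 4.06, 3.87 and 3.52 FPKM in tKO, from 84.5, 79.5 and 73.4 expected counts. It had 25.02, 25.23 and 26.68 FPKM in dKO, from 506, 513 and 536 expected counts, and 7.93, 7.2 and 8.38 FPKM in WT, from 158, 145 and 168 expected counts. The groups did not overlap anywhere: dKO was highest, WT in the middle and tKO lowest. The log2 fold change was −1.07 ± 0.118 for tKO against WT, −2.78 ± 0.0954 for tKO against dKO and 1.70 ± 0.0834 for dKO against WT. On the log2(FPKM + 1) scale, which understates differences of low genes, the same values were −0.87, −2.47 and 1.59.

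Within every hepatocyte library the order of the levels per length was Cyp2a5, Cyp2a4, Cyp2a12 and Cyp2a22. In edgeR's quasi-likelihood test with a threshold of 0.05 on the adjusted p, 3 of the 4 members passed for tKO against WT, as did 47.4% of 11471 tested genes, and 3 had groups that did not overlap, where 53.4% of genes did. For tKO against dKO 3 passed against 29.5% of genes, and 4 did not overlap against 39.8%. For dKO against WT 3 passed and 3 did not overlap, against 44.0% and 51.8% of genes. The members were chosen with these contrasts known, and nothing is read from their counts.

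The sums show how far sharing of reads between copies could reach. Each member's expected count was fractional in 9 of 9 libraries, whereas Cyp2a4 plus Cyp2a5 was a whole number, within 0.01, in 9 of 9, and so was Cyp2a12 plus Cyp2a22. Sums across the pairs were whole in 0 or 1 of 9 libraries. The fractions thus cancelled within each pair and not across them. Cyp2a4 and Cyp2a5 together had 94102, 90962 and 89671 expected counts in tKO, 25577, 25620 and 24691 in dKO and 24174, 24524 and 23452 in WT. These totals do not depend on how reads are divided within the pair, and every tKO total exceeded every dKO and WT total. Cyp2a5 alone, at 78517, 75806 and 75242 in tKO, exceeded the whole pair in each dKO and WT library. This count of a single gene does depend on that division. Counted as 1 gene, the pair had a log2 fold change of 1.85 ± 0.0336 for tKO against WT, 1.80 ± 0.0335 for tKO against dKO and 0.06 ± 0.0329 for dKO against WT.

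The make-up of the pair differed as well. The share of Cyp2a4 in its counts was 16.1% to 16.7% in tKO, 30.2% to 31.5% in dKO and 32.1% to 33.3% in WT, with no overlap between any of the 3 groups. The sources used here do not say how shared reads were divided, so this share and the single folds of Cyp2a4 and Cyp2a5 are less certain than their sum.

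For the other pair the sum and the single genes parted. Cyp2a12 plus Cyp2a22 had 3618, 3695 and 3541 expected counts in tKO, 3776, 3788 and 3804 in dKO and 3579, 3681 and 3674 in WT. Relative to library size the 3 groups lay close together, at 373 ± 12.2 CPM in tKO, 407 ± 3.50 in dKO and 396 ± 3.26 in WT (SD, n = 3 each). Counted as 1 gene, the pair had a log2 fold change of −0.09 ± 0.0386 for tKO against WT, −0.13 ± 0.0386 for tKO against dKO and 0.04 ± 0.0386 for dKO against WT. The share of Cyp2a22 in this pair was 2.07% to 2.33% in tKO, 13.4% to 14.1% in dKO and 3.94% to 4.58% in WT. Cyp2a22 is the minor copy of a pair in which reads were split, and whether its 3 levels reflect that split was not tested.

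**Figure D2:**
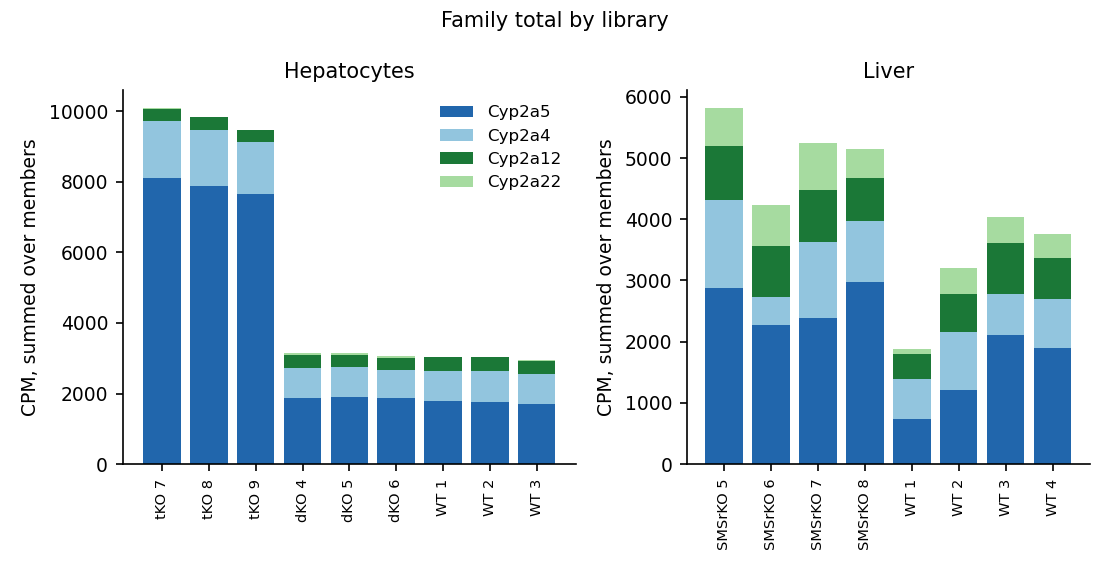
CPM of each library, stacked by member, with hepatocyte libraries (tKO, dKO, WT) on the left and liver libraries (SMSrKO, WT) on the right. The tKO bars reach 9479 to 10083 CPM, mostly Cyp2a5, against 3073 to 3161 in dKO and 2939 to 3049 in WT, and the SMSrKO bars reach 4228 to 5814 CPM against 1874 to 4046 in WT liver.

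Summed over the 4 members, the family took 0.964% to 1.01% of all expected counts in tKO libraries, 0.306% to 0.313% in dKO and 0.292% to 0.302% in WT. In CPM the sum was 9803 ± 305 in tKO, 3123 ± 45.2 in dKO and 3010 ± 61.6 in WT (SD, n = 3 each). The log2 fold change of the sum was 1.70 ± 0.0332 for tKO against WT, 1.65 ± 0.0331 for tKO against dKO and 0.05 ± 0.0325 for dKO against WT. Cyp2a5 made up 80.1% to 80.7% of the family in tKO, 59.7% to 60.5% in dKO and 57.8% to 59.2% in WT. The 3 contrasts share their libraries, so their values are set side by side and not compared with each other.

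In liver the members were on average higher in SMSrKO libraries, with a spread between libraries that was far larger than in hepatocytes. Library WT 1 stood apart: it had the lowest CPM of Cyp2a5, Cyp2a12 and Cyp2a22 of all 8, and each fold is given with and without it. Cyp2a5 had 2870, 2328, 2513 and 3277.5 TPM (the authors' values per gene length, scaled to the same total in each library) in SMSrKO libraries 5 to 8, against 742, 1380, 2195 and 2124 TPM in WT libraries 1 to 4. All 4 SMSrKO libraries lay above all 4 WT libraries, with the highest WT library close to the lowest SMSrKO library. On the log2 scale its fold change was 0.83 ± 0.294, and 0.60 without WT 1.

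Cyp2a22 had 370, 405, 488 and 311 TPM in SMSrKO and 48.1, 292, 267 and 263 TPM in WT. Here too the groups did not overlap, and WT 1 was by far the lowest library. Its fold change on the log2 scale was 0.93 ± 0.464, and 0.60 without WT 1. In the tKO hepatocytes, which carry the Smsr lesion on top of the dKO, Cyp2a22 had been lower than in dKO.

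Cyp2a4 had 1703, 548, 1555 and 1297 TPM in SMSrKO and 801, 1308, 824 and 1073 TPM in WT. SMSrKO held both the highest library and the lowest, so the groups overlapped. The log2 fold change was 0.42 ± 0.31, and 0.35 without WT 1. Cyp2a12 had 524, 516, 535 and 465 TPM in SMSrKO and 247, 428, 530 and 451 TPM in WT. The groups overlapped, with WT 1 lowest, and the log2 difference was 0.36 ± 0.198, and 0.19 without WT 1.

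**Figure D3:**
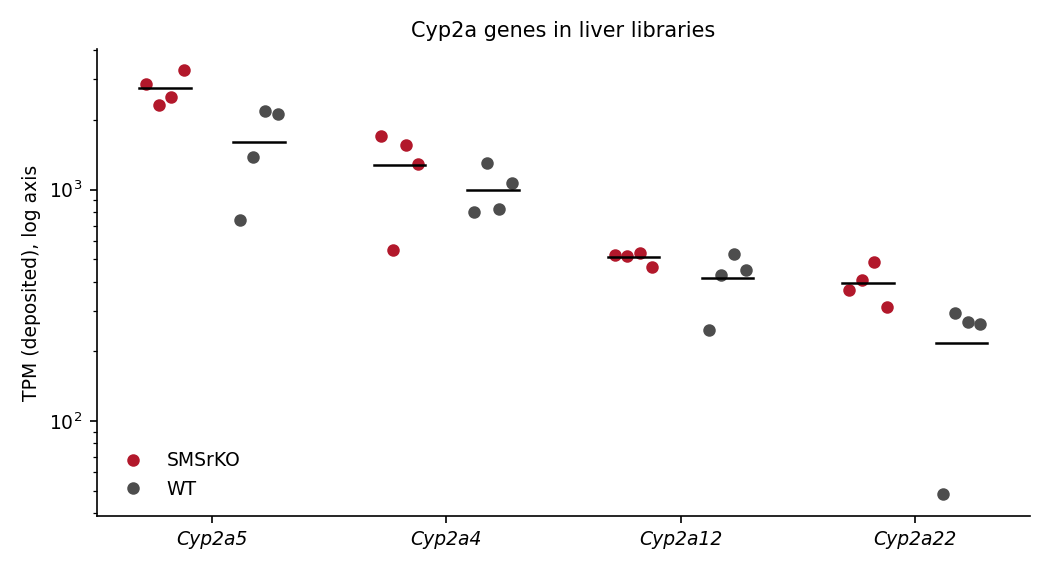
Deposited TPM of the 4 Cyp2a genes in each liver library, on a log axis, for 4 SMSrKO and 4 WT libraries; points are libraries and lines are group means. Cyp2a5 and Cyp2a22 do not overlap between the groups, at 2328 to 3277.5 TPM in SMSrKO against 742 to 2195 TPM in WT for Cyp2a5 and 311 to 488 TPM in SMSrKO against 48.1 to 292 TPM in WT for Cyp2a22, and library WT 1 is the lowest point of Cyp2a22.

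By mean TPM the order was Cyp2a5, Cyp2a4, Cyp2a12 and Cyp2a22 in both groups, at 2747 ± 419, 1276 ± 513, 510 ± 31.0 and 393 ± 73.9 TPM in SMSrKO and 1610 ± 686, 1001 ± 239, 414 ± 120 and 218 ± 114 TPM in WT (SD, n = 4 each). In WT the spreads of Cyp2a5 and Cyp2a4 overlapped, and WT 1 had more Cyp2a4 than Cyp2a5. The spreads of Cyp2a12 and Cyp2a22 overlapped in WT as well. In the same edgeR test 0 of the 4 members passed, as against 0.234% of 15820 tested genes, of which 0.120% were higher and 0.114% lower. Without adjustment 1 member had a p under 0.05 in edgeR, beside 2075 of all 15820 genes. DESeq2 and limma called 0 members, beside 469 of 15820 and 26 of 13843 genes. In 2 members the groups did not overlap, where 8.12% of genes did, and the choice of members again allows no reading of these counts.

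Cyp2a4 and Cyp2a5 together had 4573, 2876, 4068 and 4574 TPM in SMSrKO and 1543, 2688, 3019 and 3197 TPM in WT. Library SMSrKO 6, the one with little Cyp2a4, lay within the range of WT. Counted as 1 gene, the pair had a log2 fold change of 0.70 ± 0.23, and 0.53 without WT 1. The share of Cyp2a4 in the pair's counts was 16.5% to 34.2% in SMSrKO and 23.9% to 47.5% in WT, so that within each genotype the balance of these copies varied far more than among hepatocyte libraries. Cyp2a12 plus Cyp2a22 had a log2 fold change of 0.58 ± 0.259, and 0.36 without WT 1.

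The sum of all 4 was 5467, 3797, 5091 and 5350 TPM in SMSrKO and 1837, 3408, 3816 and 3911 TPM in WT. In TPM the lowest SMSrKO library lay below the top of the WT range, whereas in CPM, at 4228 to 5814 in SMSrKO and 1874 to 4046 in WT, the groups did not overlap. The family took 0.402% to 0.549% of counts in SMSrKO and 0.184% to 0.398% in WT. For the family sum the log2 difference was 0.67 ± 0.227, and 0.48 without WT 1. The summed level of the 17 hepatocyte markers was itself higher in every SMSrKO library than in every WT library, as given above. Of other sets, 22 acute-phase genes summed to 21927 to 25753 CPM in SMSrKO and 21469 to 54366 CPM in WT, 20 immediate early genes to 611 to 840 CPM in SMSrKO and 635 to 1199 CPM in WT, and 8 erythroid genes to 40.3 to 45.6 CPM in SMSrKO and 45.4 to 164 CPM in WT. Endothelial markers summed to 978 to 1195 CPM in SMSrKO and 1055 to 1289 CPM in WT, macrophage markers to 939 to 2279 CPM in SMSrKO and 1568 to 1931 CPM in WT, and stellate cell markers to 706 to 781 CPM in SMSrKO and 503 to 977 CPM in WT. Saa1, an acute-phase protein, averaged 56.1 ± 20.0 CPM in SMSrKO and 720 ± 1236 CPM in WT (SD, n = 4 each; edgeR adjusted p = 0.281). Fabp4, a fatty acid carrier of adipocytes, fell to 9.33 ± 0.868 CPM in SMSrKO, against 16.9 ± 2.86 CPM in WT (SD, n = 4 each; edgeR adjusted p = 0.0434), and was the single gene of these marker sets that edgeR called. Unadjusted p-values under 0.05 were found for 4 of 17 hepatocyte markers, 5 of 6 tested erythroid genes, 7 of 19 immediate early and 6 of 22 acute-phase genes, and DESeq2 called 2, 5, 5 and 1 genes of these sets. They were found for 0 of 17 endothelial, 0 of 14 macrophage and 1 of 15 stellate cell genes, of which DESeq2 called 0, and limma called 0 in all 7 sets. Over all 15820 genes tested, 2075 had such a p-value in edgeR and DESeq2 called 469. Without WT 1 edgeR called 42 of 15988 genes as higher and 67 as lower. Among them were 2 hepatocyte markers that were higher. Lower were 2 adipocyte, 3 erythroid, 2 immediate early genes and 1 acute-phase gene. The part of these shifts in the family's difference was not tested.

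**Figure D4:**
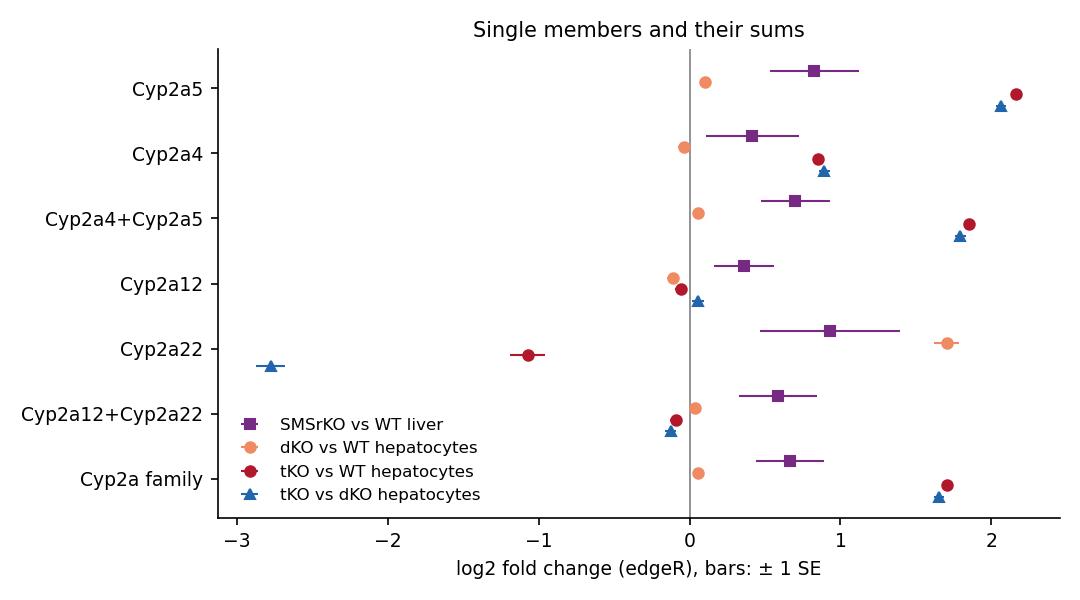
Log2 fold changes with bars of 1 SE for the 4 members, both pair sums and the family sum, in liver (SMSrKO against WT) and in hepatocytes (dKO and tKO, each against WT, and tKO against dKO). The Cyp2a4+Cyp2a5 and family sums lie at 1.65 to 1.85 in both tKO contrasts, while the Cyp2a12+Cyp2a22 sum lies between −0.13 and 0.04 in hepatocytes although Cyp2a22 ranges from −2.78 to 1.70.

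Genes that neighbour the family on the chromosome moved in both directions, and more fell than rose in both tKO contrasts. Of 17 listed neighbours, among them the Cyp2b, Cyp2f2 and Cyp2g1 genes, 11 were tested in hepatocytes. In tKO against WT 3 rose and 5 fell, beside 25.6% and 21.8% of all genes (median log2 −0.28, against 0.00 for all genes tested). Cyp2b9, a cytochrome of female mouse liver, fell to 0.171 ± 0.0582 CPM in tKO, against 146 ± 5.02 CPM in WT (SD, n = 3 each; edgeR adjusted p = 2.84e-66). Cyp2b10, the cytochrome known to follow the receptor CAR, fell to 14.1 ± 1.66 CPM, against 113 ± 9.23 CPM in WT (adjusted p = 3.34e-50 in edgeR). Cyp2b13 was not listed in any tKO file and stood at 43.4 ± 0.707 CPM in WT. In dKO Cyp2b9, Cyp2b10 and Cyp2b13 stood at 114 ± 3.73, 54.1 ± 1.81 and 49.5 ± 2.99 CPM. Cyp2f2 fell by 0.51 ± 0.0402 on the log2 scale in tKO against WT (edgeR adjusted p = 3.43e-19). Its log2 fold change was −0.44 ± 0.0402 in dKO against WT and −0.07 ± 0.0407 in tKO against dKO (edgeR adjusted p = 6.72e-16 and 0.18). In tKO against dKO 1 neighbour rose and 6 fell, beside 14.3% and 15.2% of all genes (median log2 −0.47, against 0.00 for all genes tested). In dKO against WT 4 rose and 3 fell, beside 24.0% and 20.0% (median log2 0.19, against −0.01). In liver 0 of 12 tested neighbours passed in edgeR, 1 had an unadjusted p under 0.05, and DESeq2 and limma called 0. Such a p-value was found for 2075 of all 15820 genes tested in liver, and DESeq2 called 469.

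Of 26 regulators known for Cyp2a or for liver cytochromes in general, 25 were tested in hepatocytes. In tKO against WT 9 rose and 6 fell (median 0.03), in tKO against dKO 3 rose and 9 fell (median −0.12), and in dKO against WT 13 rose and 7 fell (median 0.14), beside 25.6% and 21.8%, 14.3% and 15.2%, and 24.0% and 20.0% of all genes in the same directions. Ppargc1a, a coactivator known to raise Cyp2a5 in mouse hepatocytes, rose by 1.13 ± 0.184 in tKO and 1.53 ± 0.176 in dKO against WT (edgeR adjusted p = 2.15e-07 and 6.9e-12). Nfe2l2, the factor NRF2 that responds to oxidants, rose by 0.27 ± 0.046 in tKO against WT (edgeR adjusted p = 4.76e-07). It rose alike in dKO against WT, by 0.30 ± 0.0461 (edgeR adjusted p = 7.34e-08). Its log2 fold change in tKO against dKO was −0.02 ± 0.0451 (edgeR adjusted p = 0.739). Hnf4a, a nuclear receptor that sustains many hepatocyte genes, rose by 0.50 ± 0.0477 in tKO against dKO (edgeR adjusted p = 6.1e-15). Its log2 fold change against WT was 0.13 ± 0.0465 in tKO and −0.37 ± 0.0483 in dKO. Cebpb fell by 0.36 ± 0.0446 in tKO against dKO (edgeR adjusted p = 2.45e-10). Against WT Cebpb was higher in both, by 0.27 ± 0.0462 in tKO and 0.63 ± 0.0456 in dKO. Ghr, the growth hormone receptor, and Tef, a circadian factor, fell by 0.45 ± 0.0525 and 0.49 ± 0.0554 in tKO against WT (edgeR adjusted p = 9.79e-12 and 3.38e-12). Both also fell in dKO against WT, with log2 fold changes of −0.34 ± 0.0523 and −0.35 ± 0.0551 (edgeR adjusted p = 4.36e-08 and 1.14e-07). Neither passed in tKO against dKO (edgeR adjusted p = 0.141 and 0.057). With the larger spread of the liver libraries put in place of the hepatocytes' own, 1 regulator rose and 1 fell in tKO against WT, 0 passed in tKO against dKO, and 2 rose in dKO against WT.

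In liver 0 of 26 regulators passed in edgeR, 10 had an unadjusted p under 0.05, limma called 0, and DESeq2 called 4, Cebpa, Dbp, Hnrnpa1 and Tef. Of all 15820 genes tested, 2075 had such a p-value in edgeR and DESeq2 called 469. Without WT 1 edgeR called 1 of the 26 as higher, beside 42 of all 15988 genes tested. Dbp, a circadian factor known to drive Cyp2a4 and Cyp2a5 in mouse liver, stood at 162 ± 13.1 CPM in SMSrKO and 103 ± 19.3 CPM in WT (SD, n = 4 each; edgeR adjusted p = 0.0964). Hnrnpa1, a protein known to bind Cyp2a5 RNA, stood at 88.8 ± 5.94 CPM in SMSrKO and 74.8 ± 2.08 CPM in WT (SD, n = 4 each; edgeR adjusted p = 0.21).

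Targets of the xenobiotic receptors CAR and PXR were split in tKO against WT, where 8 of 14 rose and 5 fell (median 0.23). Of all genes tested in that contrast 25.6% rose and 21.8% fell, which is the background for each list here. Gstm3, a glutathione transferase, rose by 3.83 ± 0.0776 and Cyp3a11, the main PXR-inducible cytochrome, by 0.75 ± 0.0359 (edgeR adjusted p = 1.47e-57 and 8.52e-31), while Cyp2b10 fell as given above. Of 16 NRF2 targets 7 rose and 4 fell (median 0.05), with Gsta2 up by 1.49 ± 0.0661 and Gclc, the catalytic subunit of glutathione synthesis, down with a log2 fold change of −0.68 ± 0.0357 (edgeR adjusted p = 1.18e-30 and 2.36e-29). Genes that supply electrons or heme to cytochromes, or break heme down, rose in 1 and fell in 6 of 16 cases (median −0.10). The biliverdin reductase Blvrb rose by 0.72 ± 0.0499 (edgeR adjusted p = 4.63e-22), and Fech, which inserts iron into heme, fell by 0.39 ± 0.0545 (edgeR adjusted p = 4.32e-09). Of 12 other enzymes that handle coumarin, nicotine or their products 6 rose and 3 fell (median 0.29). Among them Fmo5 rose by 1.27 ± 0.0708 (edgeR adjusted p = 1.34e-27), and Ugt2b1, a glucuronosyltransferase, fell by 0.71 ± 0.0523 (edgeR adjusted p = 1.04e-20). In dKO against WT the log2 fold changes of Gstm3, Gsta2, Gclc, Fech, Fmo5 and Ugt2b1 were 2.12, 0.73, −1.04, −0.43, 0.78 and −0.56. Cyp3a11 and Blvrb were higher in tKO than in dKO, by 0.67 and 0.56.

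In tKO against dKO the counts were 7 higher and 3 lower of 14 CAR and PXR targets, 9 and 2 of 16 NRF2 targets, 5 and 1 of 16 electron and heme genes, and 6 and 3 of 12 coumarin and nicotine enzymes. Of all genes 14.3% were higher and 15.2% lower in that contrast. In dKO against WT the counts of these lists were 5 and 6, 3 and 5, 2 and 9, and 6 and 3, beside 24.0% and 20.0% of all genes. In liver edgeR called 0 of each of these lists, with 3 of 14, 2 of 15, 2 of 16 and 3 of 12 at an unadjusted p under 0.05, limma called 0 of each, and DESeq2 called 2, 1, 0 and 2. Over all 15820 genes tested in liver, 2075 had an unadjusted p under 0.05 in edgeR and DESeq2 called 469. With the liver spread in place of the hepatocytes' own, the counts higher and lower in tKO against WT were 5 and 1 of the CAR and PXR targets, 3 and 1 of the NRF2 targets, 1 and 0 of the electron and heme genes, 2 and 2 of the coumarin and nicotine enzymes, and 1 and 4 of the neighbours. In tKO against dKO they were 2 and 1, 0 and 0, 0 and 0, 0 and 1, and 0 and 4 in the same order. In dKO against WT they were 3 and 2, 1 and 1, 0 and 0, 1 and 0, and 1 and 1. On that spread 877 of all 11471 genes tested were higher and 344 lower in tKO against WT. Over all genes the counts were 110 and 216 in tKO against dKO, and 869 and 186 in dKO against WT. Without WT 1, edgeR called 1 gene of these lists in liver, an NRF2 target that was lower, as were 67 of all 15988 genes.

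Cyp2a4 is known as female-biased, while most other genes of that kind fell in tKO. Of 20 female-biased genes tested in hepatocytes, none of them a Cyp2a member, 2 rose and 18 fell in tKO against WT (median −1.75), and 1 rose and 14 fell in tKO against dKO (median −1.53). Cyp3a41a fell by 1.74 ± 0.0462 and Cyp2c69 by 1.65 ± 0.0424 in tKO against WT (edgeR adjusted p = 2.97e-49 and 3.38e-50). In dKO against WT Cyp3a41a rose by 0.62 ± 0.0404, while Cyp2c69 had a log2 fold change of −1.56 ± 0.0423 (edgeR adjusted p = 9.97e-24 and 1.66e-48). Of 20 male-biased genes 4 rose and 12 fell in tKO against WT (median −0.75), and 12 rose and 2 fell in tKO against dKO (median 0.41). In dKO against WT 8 female-biased genes rose and 9 fell, and 2 male-biased genes rose and 14 fell. The shares of all genes in each contrast are those given beside the regulators. In liver 0 of 21 female-biased and 0 of 18 male-biased genes passed in edgeR, 5 and 2 had an unadjusted p under 0.05, limma called 0 and 0, and DESeq2 called 3 and 1. The liver counts over all genes are likewise those given beside the regulators. Put on the liver spread, 2 female-biased genes rose and 15 fell in tKO against WT and 0 rose and 11 fell in tKO against dKO, and 4 male-biased genes rose and 10 fell in tKO against WT and 8 rose and 0 fell in tKO against dKO.

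Markers of other cells moved between the hepatocyte groups. Summed over 17 endothelial genes the level was 144 to 154 CPM in tKO, 242 to 257 CPM in dKO and 41.2 to 48.4 CPM in WT, and 15 of 16 tested members rose in tKO and 16 of 16 in dKO against WT. For 14 macrophage genes the sum was 380 to 396 CPM in tKO, 336 to 353 CPM in dKO and 122 to 138 CPM in WT, with 8 of 8 tested members up in both contrasts. Most of this sum came from Cd68, with means of 248 CPM in tKO, 201 CPM in dKO and 100 CPM in WT. Mpeg1 came next, at 116, 122 and 28.0 CPM in the same order. In tKO against dKO 2 of the 8 tested macrophage genes were higher and 2 lower (median log2 −0.62). For 15 stellate cell genes it was 124 to 135 CPM in tKO, 174 to 191 CPM in dKO and 50.3 to 57.5 CPM in WT, with 9 of 10 up in both. In WT the defining markers Vwf, Vsig4, C1qc, Lum, Lrat and Acta2 were at 0. The filter on low counts was applied over all 9 libraries. A gene near 0 in WT could thus be tested only if a knockout group expressed it. Cybb, a macrophage gene with means of 0.218 CPM in WT, 9.09 CPM in dKO and 13.2 CPM in tKO, is an example. The shares of tested members up against WT, here and on the liver spread, are therefore partly set by the filter. The 17 hepatocyte markers summed to 63149 to 65977 CPM in tKO, 72352 to 73725 CPM in dKO and 87640 to 88501 CPM in WT, and 14 of them passed in tKO against WT, 3 up and 11 down. On the liver spread 2 were called higher and 3 lower, and 14 of 16 endothelial, 8 of 8 macrophage and 8 of 10 stellate cell genes were called higher in tKO against WT. The background over all genes, on either spread, is that given for the lists above. The part of these shifts in the Cyp2a values was not tested, and fewer cells of a type and less RNA per cell cannot be told apart in these libraries.

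Other sets moved as well. Of 19 tested immediate early genes, which respond within minutes to cell isolation and stress, 18 rose and 1 fell in tKO against WT and 19 rose in dKO against WT. All 20 listed genes of this set summed to 3480 to 3536 CPM in tKO, 3321 to 3428 CPM in dKO and 2212 to 2373 CPM in WT. Of 22 acute-phase genes 12 rose and 9 fell in tKO against WT, 22 fell in tKO against dKO, and 16 rose and 4 fell in dKO against WT. On the liver spread the acute-phase counts were 6 higher and 4 lower, 0 and 2, and 8 and 0 in the same order of contrasts, and 11 immediate early genes in tKO and 12 in dKO were called higher against WT. The same background over all genes applies. The part of both sets in the Cyp2a values was not tested.

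The genes whose log2 CPM followed a member most closely over the 9 hepatocyte libraries, among 9305 genes with a mean of at least 5 CPM, are given as a description, since all share the same 3 groups. For Cyp2a5 they were Rhpn2 (Pearson r = 0.997), Eea1 (0.991) and Nbr1 (0.990), and for Cyp2a4 Nbr1 (0.992), Rhpn2 (0.991) and Ephx1 (0.986). For Cyp2a22 they were Vhl (0.994), Palmd (0.990) and Ppp1r3b (0.989), and for Cyp2a12, which varied little, they included Kdelc1 (0.964) and Ryk (0.959). Rhpn2 and Nbr1 thus stood among the 3 nearest genes of both Cyp2a4 and Cyp2a5, whereas Cyp2a12 and Cyp2a22 had none in common. Over the 8 liver libraries and 9731 genes the nearest gene was Ctsf for Cyp2a5 (r = 0.986), Cnnm3 for Cyp2a4 (0.925), Dhrs3 for Cyp2a12 (0.995) and Clmn for Cyp2a22 (0.992). Without WT 1 these were 0.994, 0.924, 0.978 and 0.946 in the same order. None of the 3 nearest genes of a member was the same in hepatocytes and liver.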

How the data were processed

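RNA sequencing of 8 mouse liver and 9 mouse hepatocyte libraries was analysed, grouped by the labels. For liver, the authors deposited whole-number counts per Ensembl gene and a table of TPM. Hepatocyte files, as the authors deposited them, gave expected counts and FPKM per Entrez gene. Trimmomatic 0.36, STAR 2.5.2b, Bowtie2 2.2.5, DESeq2 1.30.1, GRCm38 and mm10 are named per the submitters' processing notes. Not given in the sources used here are which tool served which experiment, the counting of reads that fit several genes, and the strand setting. Expected counts, 6.25% of them fractional, were rounded before testing. A gene missing from a hepatocyte file was given 0.

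The robust quasi-likelihood F test of edgeR 4.0.16 (limma 3.58.1, R 4.3.3) was applied after filterByExpr at a minimum count of 10 and TMM scaling, with Benjamini-Hochberg adjustment over all genes tested and a threshold of 0.05. Liver was 1 fit and all 9 hepatocyte libraries another. SE is the size of the log2 fold change over √F. For sums, members were merged into 1 row before the fit. The tables were normalized separately, so levels were not tested across them. The tests were tried on simulated data. Alternatives were DESeq2 1.42.0, no TMM, no filter, limma on log2(value + 1), the liver dispersion in hepatocytes, 2 groups per fit and leaving out each library. Figures and summaries used matplotlib 3.10.9, pandas 2.3.3, numpy 2.4.6 and Python 3.11.15.

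The members, the gene lists and the tests were chosen with earlier results of these data known. The genes named are the members, up to 4 of each other list with the smallest p in a contrast, the targeted and sex-chromosome genes, those called by another tool where edgeR called 0 and, by Pearson r of log2 CPM (prior count 2), the 3 nearest to each member. Some genes that this rule names are not reported here.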

Additional observations from a re-analysis of the deposited data

Results flagged for a closer look

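Among the 4 WT liver libraries, Cyp2a22 was far lower in WT 1 than in the others, at 78.6 CPM against 390 to 426 CPM. The gap to the next library made up 0.897 of the group's range, above Dixon's critical value for 4 samples. Chance marks about 1 in 20 groups in this way.

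Cyp2a22 also differed in direction between the experiments that set a Smsr lesion against its absence. Its log2 fold change was 0.93 ± 0.464 in SMSrKO against WT liver, with every SMSrKO library above every WT library. This liver difference did not pass in edgeR and was 0.60 without WT 1. In tKO against dKO hepatocytes the value was −2.78 ± 0.0954, with every tKO library below every dKO library. There Cyp2a22 is the minor copy of a pair in which reads were split. Counted as 1 gene, Cyp2a12 plus Cyp2a22 had a log2 fold change of −0.13 ± 0.0386 in tKO against dKO and 0.58 ± 0.259 in liver. Whether the hepatocyte value of Cyp2a22 reflects that split was not tested. The experiments differ in cell source and in the kind of counts. A diet is given only for the liver mice and an age only for the hepatocyte mice. The difference in direction was not tested.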

How the results depend on the processing

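Of 456 values recomputed under alternatives, 440 were labelled as kept, 16 moved and 0 reversed. A fold was labelled as kept if its sign held and it shifted by less than the SD between replicates. In liver that SD was wide, at 0.872 for Cyp2a22 with a fold of 0.93 and 0.557 for Cyp2a4 with 0.42. Cyp2a4 ranged from 0.21 to 0.67 there and Cyp2a12 from 0.19 to 0.52, and both count as kept. Runs without a library of the group not compared also count, and could hardly shift a fold. The members, both pair sums and the family sum kept their sign under every alternative run. Those that moved by more than the spread between replicates were Cyp2a22 and Cyp2a12 plus Cyp2a22 in hepatocytes, each on the log2(FPKM + 1) scale with limma. Treating Cyp2a12 and Cyp2a22 as 1 gene was chosen after seeing the data. The number of genes called depended more on the method. In liver, against 37 calls, DESeq2 made 469, no filter on low counts 136, and leaving out single libraries 11 to 109, with 109 without WT 1, 23 without WT 3, 11 without WT 4, 13 without SMSrKO 5 and 15 without SMSrKO 7. The cause of these differences was not tested. Without TMM there were 39, of which 38.5% were higher in SMSrKO, against 51.4% with it. In hepatocytes, the liver dispersion in a likelihood ratio test, which assumes a larger spread, left 1055 calls for dKO against WT, 1221 for tKO against WT and 326 for tKO against dKO, against 5045, 5435 and 3382. Leaving out single libraries gave 4517 to 5265, 4872 to 5488 and 2825 to 3356 calls. The pair sum of Cyp2a4 and Cyp2a5 then ranged from 0.53 to 0.82 in liver, 0.03 to 0.07 in dKO against WT, 1.83 to 1.87 in tKO against WT and 1.77 to 1.82 in tKO against dKO, and the family sum from 0.48 to 0.79, 0.03 to 0.06, 1.68 to 1.73 and 1.63 to 1.68. No paired analysis was possible because the groups compared share no replicate number. Depth limits Cyp2a22 in tKO most, at 73.4 to 84.5 expected counts.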
